A study of Mus musculus with 12 samples.

Results

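AP-1 is the clathrin adaptor that sorts membrane proteins at the trans-Golgi network and on endosomes. Its 8 subunit genes in the mouse are Ap1b1, Ap1g1, Ap1g2, Ap1m1, Ap1m2, Ap1s1, Ap1s2 and Ap1s3. They were followed here in whole hippocampi of mice in which miR-9 or miR-34 had been inhibited in neurons, and they account for 13 of the 32850 RefSeq entries (transcript records of RefSeq) and 8 of the 24209 genes in the deposited tables. The set was chosen by the measured values of Ap1s3, which was higher after both inhibitors by a criterion with the study's limits, and the other 7 genes were added as the remaining subunits of the complex. For Ap1s3 the comparisons of each inhibitor with its controls, and of the controls with each other, are therefore given as a description without a test. The other subunits with enough reads were tested.

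All 12 animals were male C57BL/6 mice, 10 weeks old at injection, that received AAV5 vectors into both hippocampi. Transcription was driven by the human synapsin promoter, which acts in neurons, and tissue was taken 10 weeks later. Behavioural tests of the study began before that time, but the methods do not say whether these 12 mice took them. In the miR-9 experiment, 3 GFP-miR-9sp mice (mice 17, 23 and 9) were compared with 3 GFP Ctrl mice (16, 2 and 8). In the miR-34 experiment, 3 GFP-miR-34sp mice (13, 18 and 3) were compared with 3 different GFP Ctrl mice (10, 4 and 8). A sponge is a sequence of 8 imperfect binding sites placed after GFP in the vector, so that the miRNA is bound by it instead of by its normal targets. GFP Ctrl vectors express GFP alone. Mice with the same number in both experiments are different animals. The labels name the experiment only for the GFP Ctrl mice of the miR-34 experiment, and the rest were assigned to miR-9 because, per the methods, each experiment had 3 of them.

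The complex is built from a large gamma and a large beta subunit, a medium mu subunit and a small sigma subunit. It is recruited to membranes by Arf1, binds clathrin through the hinges of its large subunits and selects cargo through short tyrosine-based and dileucine motifs in the cytoplasmic tails of membrane proteins. Gamma, mu and sigma are each encoded by paralogous genes, so that complexes of different composition can form. In neurons AP-1 is known for sorting receptors to the somatodendritic surface and for a part in recycling synaptic vesicle membrane, and mutations of the human gene AP1S2 cause X-linked intellectual disability.

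The inhibited miRNAs are shown first, because their seeds define the sites searched for in the subunit mRNAs. The sequences are from RefSeq (GRCm38.p6), with the seed, bases 2 to 8, in capitals.
mmu-miR-9-5p: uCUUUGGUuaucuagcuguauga
mmu-miR-34a-5p: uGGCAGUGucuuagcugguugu
mmu-miR-34b-5p: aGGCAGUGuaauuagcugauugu
Both miR-34 sequences shown have the same seed, which differs from that of miR-9. The study also names miR-34c in this family, but its sequence was not in the reference used here. A heptamer match is the complement of the seed (ACCAAAG for miR-9, CACTGCC for miR-34), and an octamer is the heptamer followed by A. Matches were counted on the transcript strand in the 3′ UTR of the GENCODE M1 transcript with the longest coding part of each gene.

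In 6 of the 8 subunit genes no heptamer was found for either miRNA. Ap1s3 was among them, with a 3′ UTR of 2291 bases. Over all 19915 genes with a 3′ UTR, 9.97% had a miR-9 heptamer and 12.1% a miR-34 heptamer, in UTRs with a median of 710 bases. Ap1s2 had 2 miR-9 octamers in 2587 bases, where 3.14% of all genes had at least 1, and no miR-34 match. Ap1b1 had a miR-34 heptamer in 785 bases. The sites are printed below 5′ to 3′ with 10 flanking bases on each side, with the match in capitals and coordinates on mm9, all on the plus strand and in the 3′ UTR.
Ap1s2 first miR-9 site, chrX:160365831-160365858: tcagccacaaACCAAAGAacaaaagcaa
Ap1s2 second miR-9 site, chrX:160366327-160366354: acaaatgtttACCAAAGAaaatagttag
Ap1b1 miR-34 site, chr11:4942357-4942384: ggaagatggtCACTGCCtacaaaacatt
Such a match is a description of the sequence only. The reads of these genes are given below with the sites in mind, since Ap1s3, the subunit that was higher after both sponges, held no match in this window and Ap1s2 held the octamers.

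The libraries had 17279620 to 24428477 counted reads for miR-9 mice and 11029604 to 16934133 for miR-34 mice, GFP Ctrl included. Neither the sponge and GFP transcripts nor mature miRNAs are among the counted entries, so the inhibition itself was not checked in these tables. The labels give hippocampal neurons as the cell type, but whole hippocampus was sequenced. The 7 neuronal markers summed to 2979 to 3723 reads per 1000000 counted reads (RPM) in the 12 mice, and the 5 astrocyte markers to 2150 to 2512. Most of the neuronal sum came from Slc17a7, while Rbfox3 was near 0 and Syt1 and Syn1 were low. A lower number of cells of one type and less RNA per cell cannot be told apart in such tissue.

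Of the 13 subunit entries, 6 passed the limit of a mean above 10 scaled reads (reads scaled to the average total of the experiment), which was required for a test. These were the single entries of Ap1g1 (NM_009677), Ap1g2 (NM_007455), Ap1m1 (NM_007456), Ap1s1 (NM_007457) and Ap1s3 (NM_183027), and NM_026887 of Ap1s2. The other 7 were nearly empty. The 3 entries of Ap1b1, the beta subunit, held 0 to 2 reads in each mouse, all of them on NM_001243043, and both entries of Ap1m2, the mu subunit of epithelial cells, held 0 in all 12 mice. NM_001290378 of Ap1s2 was at 0 throughout, and NM_001290379 had 1 read, in miR-9sp mouse 23. A count of 0 allows up to 3 reads in a library, a floor that covers counting error only.

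The entries at or near 0 belonged to genes with several RefSeq entries. Among coding genes in the whole table, the mean was above 10 scaled reads for 64.9% of those with 1 entry, 39.1% of those with 2 and 31.6% of those with 3 or more. Clta, the clathrin light chain that most cells make, was also nearly empty, with no entry above a group mean of 0.37 scaled reads over its 5 entries, and Ap5s1 was at 0 on all 4. The rule by which reads shared between entries were assigned is not given in the sources used here. In GENCODE, 98.5% of the 50-base stretches of Ap1b1 and 96.7% of those of Ap1m2 also occur in another transcript of the same gene, against 16.1% for the long Ap1s2 transcript. The share was also high for Ap1g2 (98.3%) and Ap1g1 (89.9%), which were counted. These have 1 RefSeq entry each, so no other counted entry of the same gene could share their reads. Whether sharing between entries lowered the counts was not tested. The low values of Ap1b1 and Ap1m2 are given as listed, and no statement on their expression rests on them.

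Levels between genes were compared as reads per kilobase of entry and per 1000000 counted reads (RPKM). The sigma subunit Ap1s1 stood highest, at 177 ± 10.3 RPKM (SD, n = 6) in the miR-9 experiment and 183 ± 7.24 in the miR-34 experiment. Next came the mu subunit Ap1m1 with 47.1 ± 1.27 and 42.2 ± 1.18, and the gamma subunit Ap1g1 with 34.98 ± 0.691 and 31.9 ± 0.598. These genes did not overlap each other in either experiment and made up a group of well expressed gamma, mu and sigma subunits.

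As counted, the remaining paralogs were far lower. Ap1g2, the second gamma subunit, had 3.50 ± 0.490 RPKM in the miR-9 experiment and 2.37 ± 0.168 in the miR-34 experiment. Ap1s2 followed with 1.80 ± 0.441 and 2.18 ± 0.654, and Ap1s3 with 1.33 ± 0.189 and 1.19 ± 0.167. Neighbours in this order were not all separate. The mice overlapped between Ap1g2 and Ap1s2 in the miR-34 experiment, between Ap1s2 and Ap1s3 in the miR-9 experiment, and between Ap1b1 and Ap1m2 in both. Ap1s3 had the lowest mean RPKM of the 6 genes with testable entries in both experiments.

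**Figure D1:**
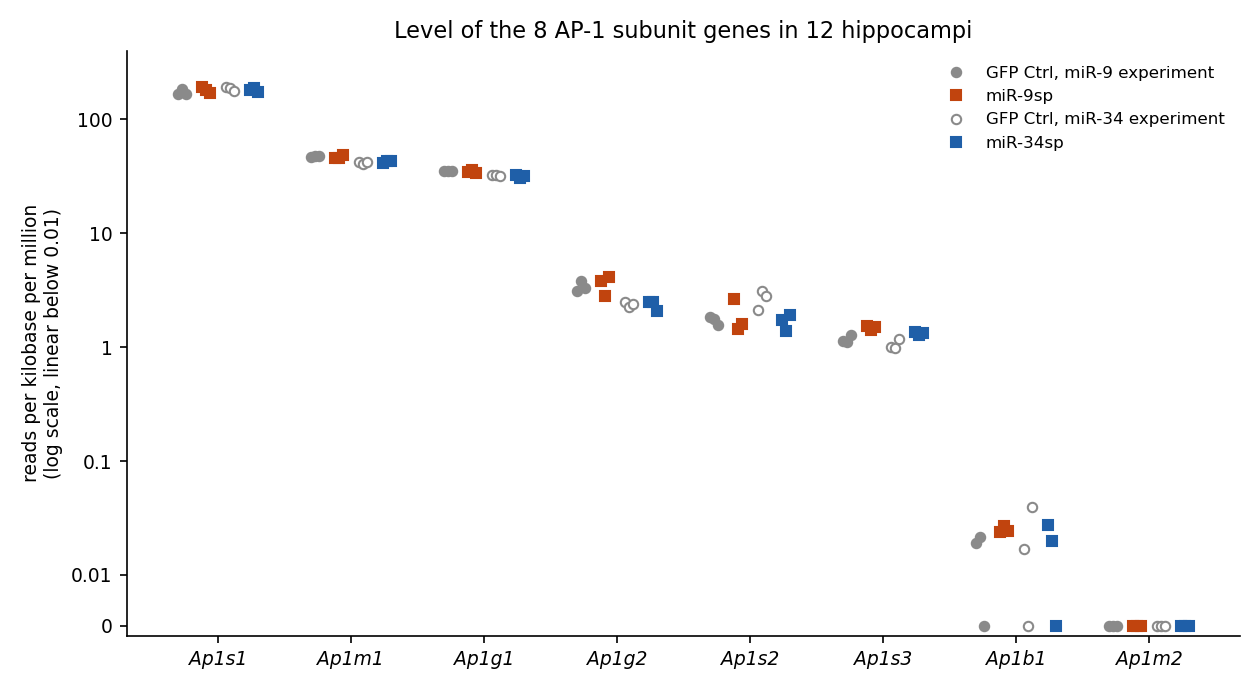
Level of each AP-1 subunit gene in RPKM (log axis, linear below 0.01), with 1 point per mouse and 3 mice per group. Ap1s1, Ap1m1 and Ap1g1 lie between 30.8 and 193 in every mouse, Ap1g2, Ap1s2 and Ap1s3 between 0.977 and 4.12, and Ap1b1 and Ap1m2 at or near 0.

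In the sigma and gamma families a single gene took most of the level. Averaged over the 12 mice, Ap1s1 made up 98.2% of the RPKM of the sigma subunits, Ap1s2 1.08% and Ap1s3 0.688%. Ap1s2 has 3 RefSeq entries, of which only NM_026887 held more than 1 read in any mouse. In GENCODE, 83.9% of the 50-base stretches of the long transcript Ap1s2-003 occur in no other Ap1s2 transcript, against 22.4% for Ap1s2-001. A loss of reads shared between its entries was not tested, so its level and share describe the counted reads only. Ap1g1 made up 92.0% of the gamma subunits. Ap1s3 lies on mm9 chromosome 1, from 79603451 to 79668547 on the minus strand, Ap1s1 on chromosome 5, and Ap1s2 on chromosome X from 160346949 to 160371598 on the plus strand. The coding sequences of the sigma genes were 67.5% to 72.2% identical, and their transcripts shared no run longer than 21 bases, so that a 50-base read of one could not match another in full.

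Ap1s3 was measured from few reads. Its unscaled counts were 31 to 87 reads per mouse, for which counting alone gives an error of 18.0% to 10.7%. In GENCODE, 144 of its 2827 stretches of 50 bases (5.09%) also occur in transcripts of other genes, whose reads could not be told apart from its own there.

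In the miR-9 experiment, Ap1s3 had 65.2, 63.9 and 74.2 scaled reads in GFP Ctrl mice 16, 2 and 8, and 89.5, 81.7 and 87.3 in miR-9sp mice 17, 23 and 9. All sponge mice were above all control mice (for 3.29% of all entries they were). The ratio of the means was 1.27 and the log2 ratio of the edgeR fit 0.37 (SE 0.13). Because the gene was selected on these values, the SE does not serve as a test.

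In the miR-34 experiment, Ap1s3 had 37.3, 36.7 and 44.4 scaled reads in GFP Ctrl mice 10, 4 and 8, and 50.9, 48.2 and 49.96 in miR-34sp mice 13, 18 and 3. Again the groups did not overlap (the same order held for 6.2% of all entries). The SD of the sponge mice was 1.37 on a mean of 49.7, which is below the counting error given above. The ratio of the means was 1.26 and the log2 ratio 0.33 (SE 0.17), where the SE again does not serve as a test.

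Ap1s3 was selected on these ratios, which are not evidence for it. This criterion uses the limits given by the study but was applied here to single RefSeq entries. It requires an unadjusted p under 0.05, a ratio above 1.2 or below its inverse, and a mean above 10 scaled reads in GFP Ctrl mice. After miR-9sp 0.475% of entries passed it upwards, and after miR-34sp 0.774% did. Of the 12662 entries that could meet it in both experiments, Ap1s3 was the only one to pass upwards in both (0.0079%). By p in both experiments but with too small a ratio, the entries just outside were Sec1, with ratios of 1.17 and 1.85, and Pcdhb7, with 1.11 and 1.15. Having all sponge mice above all control mice in both experiments was less rare, with 20 of 12673 entries (0.158%). Without any single mouse, the log2 ratio of Ap1s3 stayed between 0.33 and 0.44 after miR-9sp and between 0.29 and 0.42 after miR-34sp.

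**Figure D2:**
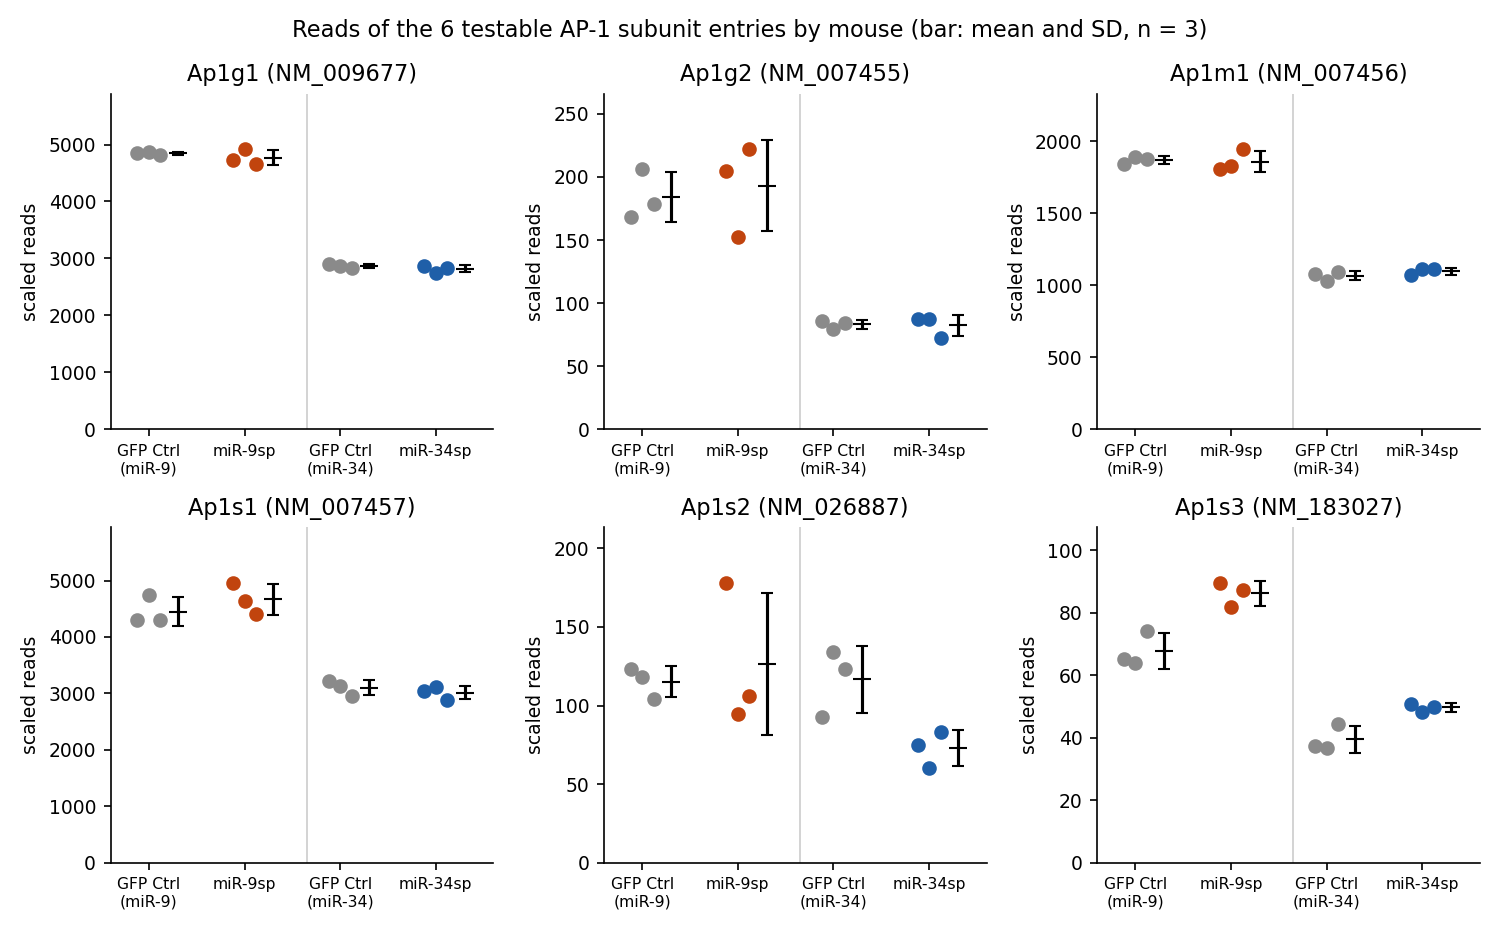
Scaled reads of the 6 testable subunit entries, with 1 point per mouse in its group and the mean ± SD (n = 3) beside the points; the grey line separates the experiments, which are scaled to different totals. Sponge mice lie above GFP Ctrl mice for Ap1s3 in both experiments and below them for Ap1s2 in the miR-34 experiment, and overlap with them for the other 4 entries.

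As a share of the 3 sigma subunits, Ap1s3 was 0.668% ± 0.083 (SD, n = 3) in GFP Ctrl and 0.805% ± 0.050 in miR-9sp mice, and 0.556% ± 0.082 and 0.722% ± 0.039 in the miR-34 experiment. Ap1s1 made up 98.0% to 98.4% of the family in each group, so the shares of Ap1s3 largely restate the values it was selected on.

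Ap1s2, the sigma subunit with the miR-9 octamers, did not follow Ap1s3. The octamers were found in the transcript Ap1s2-003 (3199 bases). The counted entry, NM_026887, has 3327 bases, and whether it holds the same sites was not checked. In the miR-9 experiment it had 122.9, 118.4 and 103.9 scaled reads in GFP Ctrl mice 16, 2 and 8, and 178.0, 94.5 and 106.2 in miR-9sp mice 17, 23 and 9. Mouse 17 was above all controls and mouse 23 below all of them. The log2 ratio was 0.16 (SE 0.21), a 1.11-fold difference with a 95% interval of 0.811 to 1.53, and an adjusted p of 0.971 by the quasi-likelihood test of edgeR. Without mouse 17 the log2 ratio was -0.17.

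In the miR-34 experiment, Ap1s2 was lower in all sponge mice. It had 92.8, 133.8 and 123.1 scaled reads in GFP Ctrl mice 10, 4 and 8, and 74.8, 60.5 and 83.3 in miR-34sp mice 13, 18 and 3. The groups did not overlap, with sponge mice below controls as in 5.42% of all entries. The fold was 0.632, with a 95% interval of 0.490 to 0.814, and the log2 ratio -0.66 (SE 0.17). With edgeR the unadjusted p was 0.00209 and the adjusted p 0.377, so the entry did not pass the limit of 0.05. It met the criterion with the study's limits downwards, as did 1.25% of all entries. When all entries with at least 1 read were tested, the adjusted p was 0.0121, and over the alternatives on RefSeq entries with at least 2 mice per group it ranged from 0.0121 to 0.830.

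Reads of choroid plexus were set beside those of Ap1s2. The choroid plexus is the secretory epithelium of the ventricles next to the hippocampus, and its marker list held 10 genes, of which Ttr, encoding the carrier protein transthyretin, was the most abundant. In the miR-34 experiment the list summed to 648, 2001 and 2383 RPM in GFP Ctrl mice 10, 4 and 8, and to 151, 71.8 and 141 in miR-34sp mice 13, 18 and 3. In that experiment all 8 testable markers of the list were lower in sponge mice by unadjusted p, 3 of them by adjusted p (edgeR), with a median log2 ratio of -3.73. Folr1 was at 0 in every mouse and Otx2 at or near 0. The mice with the most marker reads, GFP Ctrl 8, 4 and 10, were also the 3 with the most Ap1s2. These are all the GFP Ctrl mice of that experiment, so this order cannot be told apart from the treatment.

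In the miR-9 experiment the list summed to 291, 748 and 124 RPM in GFP Ctrl mice 16, 2 and 8, and to 886, 67.7 and 52.0 in miR-9sp mice 17, 23 and 9. Mouse 17, with the most marker reads, was the mouse with the most Ap1s2. The other mice did not keep this order. GFP Ctrl mouse 2, next in marker reads, had 118.4 scaled reads of Ap1s2, below the 122.9 of mouse 16. Mouse 9, with the fewest marker reads, had 106.2, above the 103.9 of GFP Ctrl mouse 8. None of the 7 testable markers passed the unadjusted limit in this experiment, in either direction (edgeR). Without the 2 mice richest in marker reads in each experiment, a comparison chosen once the values were known, the log2 ratio of Ap1s2 was -0.15 after miR-9sp (mice 17 and 2 left out) and -0.35 after miR-34sp (GFP Ctrl mice 8 and 4 left out). The latter sets 3 sponge mice against GFP Ctrl mouse 10 alone, so it is given as a value without a test. Mouse 17, and GFP Ctrl mice 8 and 4, also had the most Ap1s2 in their experiments. Leaving them out therefore shifts these ratios by itself. The part of these marker reads in the result for Ap1s2 was not tested.

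For Ap1s3 in the miR-9 experiment, mouse 17, with the most marker reads, and mouse 9, with the fewest, had the highest values. In the miR-34 experiment the 3 mice with the fewest marker reads were the 3 with the most Ap1s3. With the same mice left out, its log2 ratio was 0.32 after miR-9sp and, against the single remaining GFP Ctrl mouse, 0.41 after miR-34sp. A part of the marker reads in the values of Ap1s3 was not tested.

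**Figure D3:**
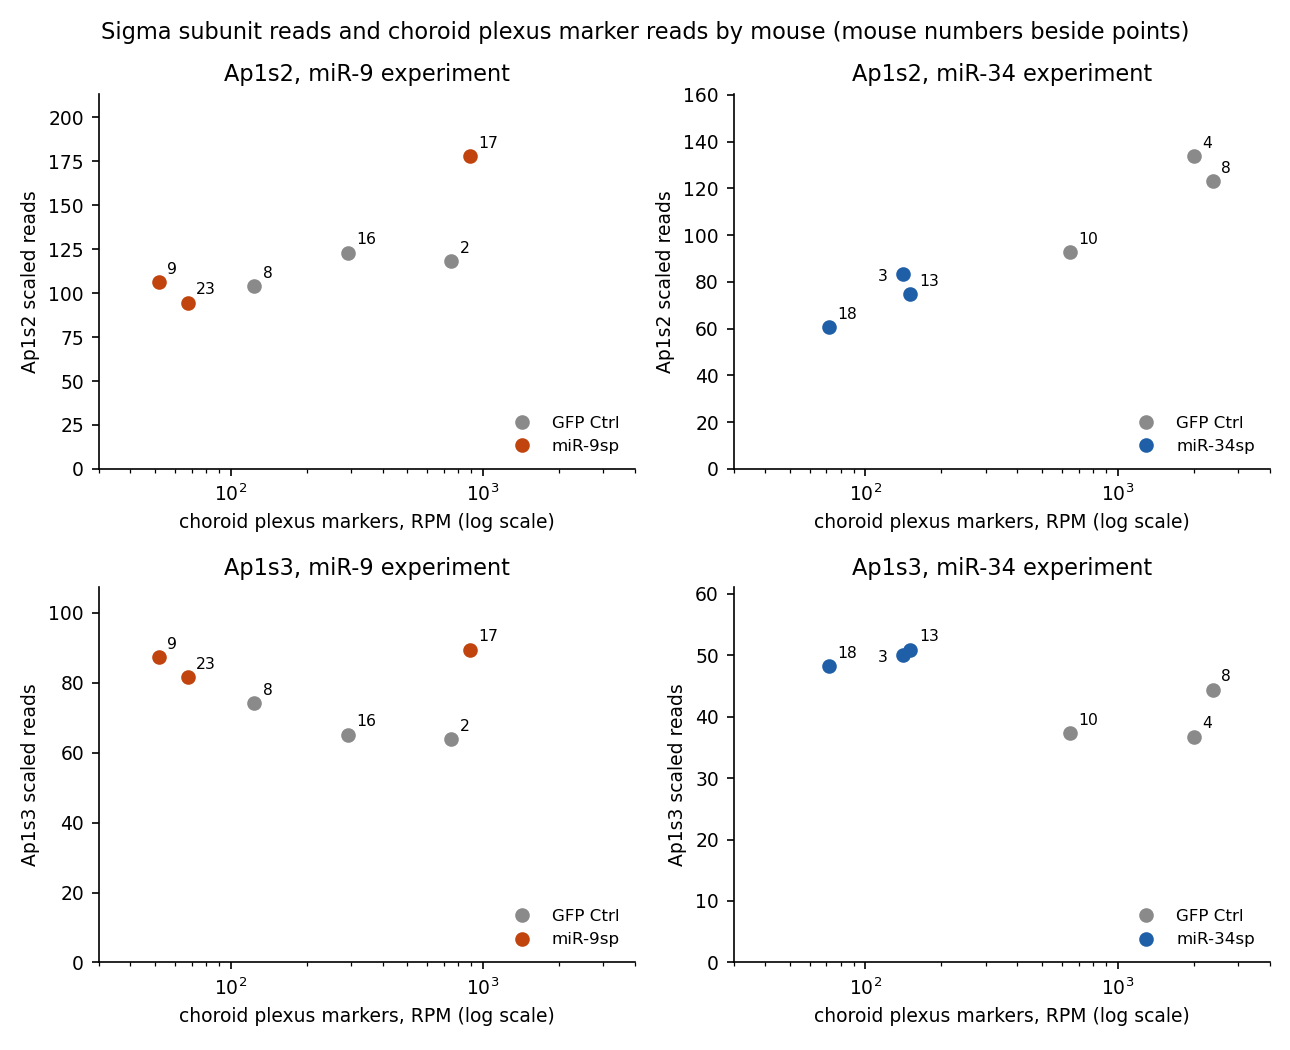
Scaled reads of Ap1s2 (top) and Ap1s3 (bottom) in each mouse against the summed RPM of 10 choroid plexus markers (log axis), with mouse numbers beside the points. In the miR-9 experiment Ap1s2 is highest in miR-9sp mouse 17 (178.0), which has the most marker reads, while GFP Ctrl mouse 2, next in them, has 118.4. In the miR-34 experiment it is highest in GFP Ctrl mice 4 and 8 (133.8 and 123.1), which have the most marker reads, and miR-34sp mice have the fewest.

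The difference between both sponge effects was tested for the 5 subunits other than Ap1s3. For Ap1s2 the effect of miR-34sp minus that of miR-9sp was -0.81 on the log2 scale (SE 0.29), with an adjusted p of 0.746 in edgeR, and none of the 5 passed the adjusted limit. By unadjusted p under 0.05, 1 of the 5 did, Ap1s2, against 6.31% of all entries. For the other 4 the difference lay between -0.13 and 0.03.

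In the 4 other subunits sponge and GFP Ctrl mice were not separated in either experiment. Ap1g1, the main gamma subunit, had 4821 to 4876 scaled reads in GFP Ctrl and 4666 to 4913 in miR-9sp mice, and 2830 to 2903 and 2746 to 2864 in the miR-34 experiment. Its folds were 0.999 (95% interval 0.936 to 1.07) and 0.980 (0.928 to 1.03). Ap1m1, which recognises tyrosine-based sorting signals, had folds of 1.01 (0.946 to 1.08) and 1.03 (0.957 to 1.10). For both genes the intervals stayed between 0.928 and 1.10.

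The fold of Ap1s1, the main sigma subunit, was 1.07 after miR-9sp (95% interval 0.981 to 1.16) and 0.968 after miR-34sp (0.904 to 1.04). Ap1g2, measured from 67 to 220 reads per mouse, was less precise, with folds of 1.07 (0.866 to 1.31) and 0.987 (0.803 to 1.21). It overlaps Thtpa on the other strand, and 88 of its 2624 stretches of 50 bases are shared with that gene. In all 8 comparisons of these 4 genes the groups overlapped and the adjusted p in edgeR was between 0.927 and 0.997. Of the 5 subunits tested, 0 had groups that did not overlap in the miR-9 experiment and 1 in the miR-34 experiment, against 11.1% and 11.6% of all entries.

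**Figure D4:**
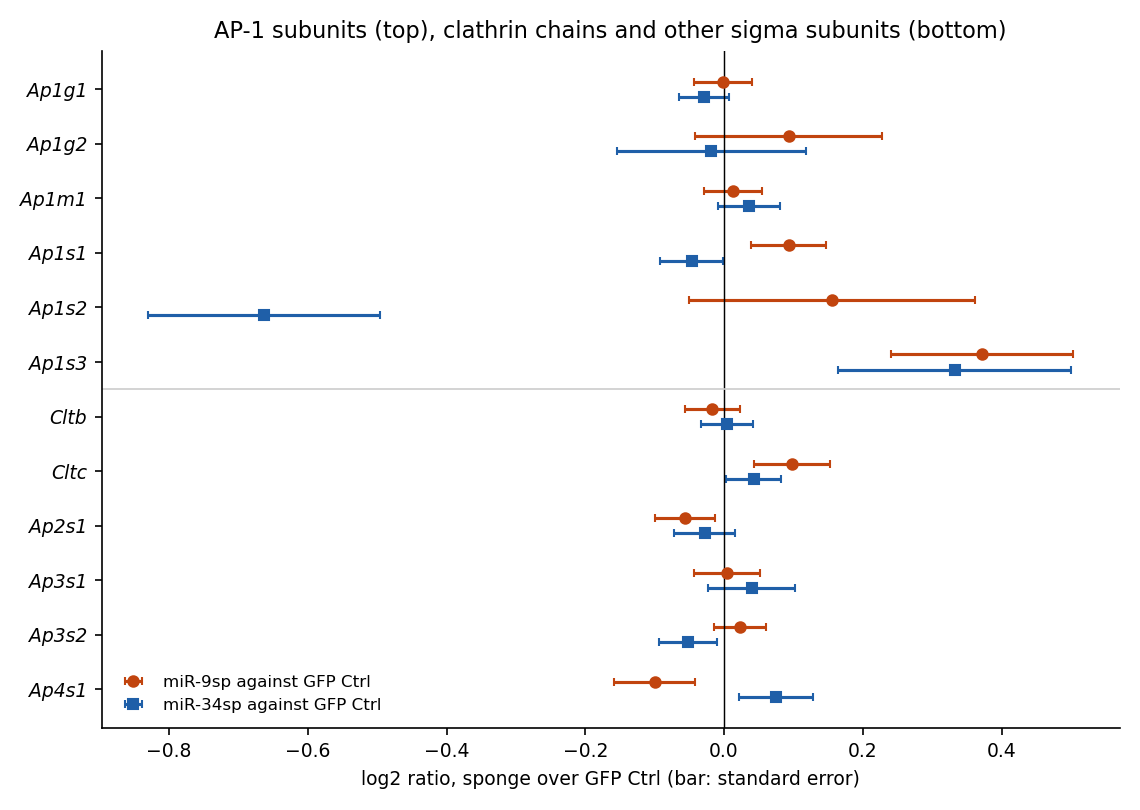
Log2 ratio of sponge to GFP Ctrl with its standard error from edgeR, for the 6 testable AP-1 subunits (top), the clathrin chains Cltb and Cltc, and sigma subunits of other adaptor complexes (bottom). Ap1s3 lies at 0.37 and 0.33, Ap1s2 at 0.16 and -0.66, and the other entries shown lie between -0.10 and 0.10. The bars of Ap1s3 do not serve as a test, because it was selected on these values.

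Summed by gene, the values were nearly those of the single entries, because all but 1 read of Ap1s2 lay on NM_026887. The sum of Ap1s2 had a log2 ratio of 0.16 (SE 0.20) after miR-9sp and -0.66 (SE 0.17) after miR-34sp, with an adjusted p of 0.397 in edgeR for the latter. Over the whole table edgeR called 0 of 13439 entries after miR-9sp (629 at an unadjusted p under 0.05, and 2 by DESeq2) and 4 of 12787 after miR-34sp (0.0313%), all lower and no AP-1 subunit among them. Leaving out single mice gave 0 to 60 calls after miR-34sp, with 60 without GFP Ctrl mouse 10, 1 without GFP Ctrl mouse 8 and 0 without any of the others.

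The GFP Ctrl mice of both experiments differed from each other in 4 of the 6 subunits at an adjusted p under 0.05 in edgeR, while 24.6% of all entries were called. Relative to the miR-9 experiment, GFP Ctrl mice of the miR-34 experiment were 1.61-fold higher in Ap1s2 (log2 difference 0.69, SE 0.15, adjusted p = 0.00687) and 0.728-fold lower in Ap1g2 (-0.46, SE 0.12, adjusted p = 0.0175). Ap1s1 was 1.12-fold higher (adjusted p = 0.0300), and Ap1m1 stood at 0.917-fold (adjusted p = 0.0435). Ap1g1, at 0.950-fold with an adjusted p of 0.119, was not called. Ap1s3 stood at 0.938-fold, given without a test because its GFP Ctrl values entered the ratios it was chosen on. Leaving out single mice never lost the call of Ap1s2, whereas that of Ap1g2 was lost without GFP Ctrl mouse 4 of the miR-34 experiment or mouse 2 of the miR-9 experiment, that of Ap1s1 without mouse 10 or 4 of the former or 16 or 8 of the latter, and that of Ap1m1 without any 1 of the 6. Experiment, library preparation and sequencing run cannot be told apart in this comparison, and choroid plexus markers were also higher in these GFP Ctrl mice, with a mean of 1677 against 388 RPM.

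Genes that work with AP-1 were listed as clathrin chains, regulators and partners, cargo, and subunits of AP-2 to AP-5, 56 genes in all. A test was possible for 49 entries of 48 genes. After miR-9sp, 2 of the 49 were higher and 0 lower at an unadjusted p under 0.05 (edgeR), where 2.45% and 2.23% of all entries were. After miR-34sp, 0 were higher and 0 lower, where 2.77% and 3.61% of all entries were. None passed the adjusted limit in either experiment. The median log2 ratios of the list were 0.0068 and -0.010, beside -0.00055 and -0.00048 over all entries.

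The entries that passed by unadjusted p, both after miR-9sp, were Arf3 and Ap2a2. Arf3, a small GTPase of the family that recruits AP-1, had a fold of 1.09 (adjusted p = 0.968 in edgeR). All sponge mice were above all controls, as in 3.29% of all entries. Ap2a2, a large subunit of the plasma membrane adaptor AP-2, had a fold of 1.10 (adjusted p = 0.968 in edgeR). After miR-34sp the fold of Arf3 was 0.982 with overlapping groups. That of Ap2a2 was 0.946 (adjusted p = 0.831 in edgeR), with all sponge mice below all controls, as in 5.42% of all entries. The clathrin heavy chain Cltc had folds of 1.07 and 1.03 and the light chain Cltb 0.988 and 1.00, all with overlapping groups.

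The sigma subunits of the other adaptor complexes were set beside Ap1s3. Ap2s1 of AP-2 had folds of 0.962 (miR-9sp) and 0.981 (miR-34sp). Ap3s1 had 1.00 and 1.03, and Ap3s2 1.02 and 0.964. Ap4s1 of AP-4 had 0.933 and 1.05, with all sponge mice above all controls after miR-34sp, as in 6.2% of all entries. Their adjusted p in edgeR was 0.900 or higher, and none had a log2 ratio beyond 0.10 in either direction.

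The entries whose values over the 12 mice were most like those of Ap1s3 were sought among 12672 entries. Pearson's r was taken on log2 RPM after subtraction of each experiment's mean. The RPM were normalised between libraries by edgeR, with a prior count of 2. The 5 highest were Gipr, a receptor for an incretin hormone (r = 0.845), the snoRNA host gene Snhg5 (0.841), the serine protease gene Prss16 (0.835), Prkar1a, a regulatory subunit of protein kinase A (0.823), and Efna2, an ephrin ligand (0.816). These r are descriptions, since the mice share treatment groups, and Gipr and Prss16 had means of only 20.4 and 19.5 scaled reads. With group means subtracted, the r of the 5 entries were 0.747, 0.596, 0.665, 0.436 and 0.651. The other AP-1 subunits had r between -0.35 (Ap1g1) and 0.39 (Ap1m1), and Ap1s2 had -0.32.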

How the data were processed

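Hippocampal RNA of 12 mice was analysed in 2 experiments of 6. Per the methods, poly-A enriched libraries were read as 50 bp single end reads, mapped to mm9 and quantified to RefSeq by the authors. The submitters' processing notes name mm10 and STAR instead, and the counting tool is not given in the sources used here. The deposited values are raw counts per RefSeq entry with the entry's length. Symbols were found for 98.7% of entries.

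Reads were scaled to the average total of the experiment, as in the study. Sponge and GFP Ctrl mice were compared with edgeR 4.0.16 in R 4.3.3 (quasi-likelihood test, TMM, Benjamini-Hochberg over all entries) on entries with a mean above 10 scaled reads, without covariates. The difference between effects was tested in 1 model of 12 mice. DESeq2 1.42.0, other size factors and filters, sums by gene and leaving out mice were alternatives. P-values set the difference between groups against the spread between individual mice. For the GFP Ctrl mice of both experiments, that spread does not cover differences between experiments. The code was tested on simulated data. Levels are RPKM.

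The subunits, pathway genes and marker lists were chosen with earlier results of these data known. Genes named were the subunits, clathrin chains, sigma subunits of other complexes, at most 5 pathway entries per experiment with the smallest unadjusted p under 0.05, the 5 entries most like Ap1s3, and leading markers. Sec1, Pcdhb7, Rbfox3, Syt1, Syn1, Folr1, Otx2 and Thtpa were named for a threshold, a low value or one of 0, or an overlap. Sites and mm9 positions came from GENCODE M1.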

Additional observations from a re-analysis of the deposited data

How the results depend on the processing

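The number of entries called after miR-9sp was 0 in edgeR, 2 when entries with at least 1 read were tested, 2 with DESeq2, 201 by the study's limits as applied here to RefSeq entries, and 1 without the 2 mice richest in choroid plexus markers. After miR-34sp it was 4, and 8 with DESeq2 size factors, 140 with at least 1 read, 37 with DESeq2, 0 in 1 model of 12 mice, 8 for sums by gene, 259 by the study's limits and 1 without the 2 marker-rich mice, which leaves 1 GFP Ctrl mouse, assumed to vary like the other mice. For sums by gene after miR-34sp it was 8, and 4 with scaling by total counts alone. Leaving out single mice gave 0 to 1 calls after miR-9sp (sums 0 to 1, with 1 without GFP Ctrl mouse 2 or miR-9sp mouse 17), 0 to 60 after miR-34sp (sums 0 to 57, highest without GFP Ctrl mouse 10), 0 to 1 for the difference between effects (1 without GFP Ctrl mouse 2 of the miR-9 experiment) and 2253 to 2931 between GFP Ctrl groups (3249 with all mice). The cause was not tested.

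Under the alternatives run, the log2 ratio of Ap1s3 moved by less than the pooled SD of log2 scaled reads within groups; the gene was selected on these values. With total counts alone Ap1m1 after miR-9sp was at -0.0085 for the entry and for the sum. Without the marker-rich mice Ap1g1 after miR-9sp was at 0.020 and Ap1s2 at -0.15. With single mice left out, log2 ratios changed sign after miR-9sp for Ap1g2 (-0.016 to 0.22, sum -0.015 to 0.22), Ap1m1 (-0.018 to 0.042, sum -0.017 to 0.046), Ap1g1 (-0.037 to 0.015, sum -0.036 to 0.018) and Ap1s2 (-0.17 to 0.31, sum -0.16 to 0.31), after miR-34sp for Ap1g2 (-0.072 to 0.069, sum -0.072 to 0.071), and in the difference between effects for Ap1g2 (-0.24 to 0.00065), Ap1m1 (-0.0048 to 0.057) and Ap1g1 (-0.044 to 0.0043). Between GFP Ctrl groups, the calls of Ap1g2, Ap1m1 and Ap1s1 were lost without some mice, and that of Ap1s1 also with total counts alone, which added Ap1g1 (adjusted p = 0.00892, edgeR). As RPM, without length, the level of Ap1s1 over that of Ap1g1 was 0.948 in the miR-9 experiment and 1.08 in the miR-34 experiment. With group means subtracted the highest r to Ap1s3 was 0.960. No paired analysis was possible because sponge and GFP Ctrl groups share no mouse numbers, and the GFP Ctrl groups share only number 8, in separate experiments. At 31 to 87 reads per mouse, depth limits what can be said of Ap1s3.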
